A study of Homo sapiens with 24 samples.

Results

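Genes that join, divide and carry mitochondria were followed in LUHMES neuron-like aggregates exposed to rotenone: MFN1, MFN2 and OPA1 for fusion, DNM1L, FIS1 and MFF for fission, and RHOT1, RHOT2, TRAK1 and TRAK2 for transport. Members were all array probes whose RefSeq accession belongs to one of these genes, and no probe was picked by its measured value. The list of genes itself was chosen with earlier results of these data known. This gave 16 probes, 2 each for MFN2, OPA1, DNM1L, MFF, RHOT1 and TRAK1 and 1 each for MFN1, FIS1, RHOT2 and TRAK2. All 10 genes passed the filter on dim spots and stood among 21420 genes tested.

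LUHMES is an established human mesencephalic cell line kept dividing by a v-myc transgene that tetracycline shuts off, after which the cells differentiate into post-mitotic dopaminergic neuron-like cells. All groups came from this line, grown as aggregates under constant shaking, and treatment began on day 7. The 8 groups held 3 one-colour arrays each. They were the DMSO solvent control, with as much DMSO as the highest dose, rotenone at 50 nM for 12 h, at 50 nM for 24 h and at 100 nM for 24 h, each collected either on day 8 or, after the compound was washed out and the aggregates had recovered for 7 days, on day 15.

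Mitochondria in neurons fuse, divide and travel along neurites. The mitofusins MFN1 and MFN2 are GTPases that join outer membranes, and OPA1 is a dynamin-like GTPase that joins inner membranes and shapes cristae. DNM1L, also called DRP1, is a cytosolic GTPase that assembles around the organelle and constricts it, and the outer membrane proteins MFF and FIS1 take part in its recruitment. RHOT1 and RHOT2, the Miro proteins, are calcium-binding GTPases of the outer membrane, and TRAK1 and TRAK2 are adaptors that connect Miro with kinesin and dynein motors. The kinase PINK1 and the ubiquitin ligase Parkin act on mitofusins and Miro, and their genes are mutated in familial Parkinson's disease. Rotenone is an inhibitor of complex I of the respiratory chain that is used in models of that disease.

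The 3 genes called between day 15 and day 8 in DMSO aggregates, all lower on day 15 (RHOT2, TRAK1 and OPA1), are shown with the 250 bases before a transcription start, on the gene's strand, from RefSeq on GRCh38.p14. The RHOT2 window is the more upstream of 2 overlapping ones (chr16:667833-668082, plus strand), that of OPA1 is its single one (chr3:193592958-193593207, plus strand), and that of TRAK1 is the 1 of its 3 windows that holds a cAMP response element (chr3:42148985-42149234, plus strand). Capitals mark matches on either strand to the GC box GGGCGG, the NRF1 motif and the cAMP response element TGACGTCA.
RHOT2: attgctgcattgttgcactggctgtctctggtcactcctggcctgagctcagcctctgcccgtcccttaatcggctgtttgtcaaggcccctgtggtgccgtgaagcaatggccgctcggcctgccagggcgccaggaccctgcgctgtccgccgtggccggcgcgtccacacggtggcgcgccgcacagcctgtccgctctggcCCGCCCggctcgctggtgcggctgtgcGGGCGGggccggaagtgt
OPA1: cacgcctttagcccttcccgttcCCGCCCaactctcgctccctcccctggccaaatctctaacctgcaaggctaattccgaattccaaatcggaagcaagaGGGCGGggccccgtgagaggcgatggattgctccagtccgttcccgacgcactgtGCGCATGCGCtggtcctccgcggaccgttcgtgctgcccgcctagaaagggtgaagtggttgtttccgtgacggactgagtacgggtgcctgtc
TRAK1: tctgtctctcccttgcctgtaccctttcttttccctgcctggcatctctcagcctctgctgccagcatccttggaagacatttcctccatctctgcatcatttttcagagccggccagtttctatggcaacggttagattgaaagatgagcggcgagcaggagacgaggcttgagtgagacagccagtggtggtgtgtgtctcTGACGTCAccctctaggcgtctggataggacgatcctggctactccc
Both GC-rich windows, of RHOT2 with 70% G and C and of OPA1 with 61.6%, hold 2 GC boxes, and the OPA1 window also holds 1 NRF1 motif, the binding sequence of a factor known for nuclear genes of mitochondrial proteins. The TRAK1 window holds no GC box and 54.4% G and C, against a median of 58% over all promoters. Windows were taken for 9 of the 10 genes, all but RHOT1. These genes had 14 windows, up to 3 a gene. A GC box lies in 8 of the 14 windows (57.1%) and in 42.6% of 35116 promoters of the same length, the NRF1 motif in 1 window (7.14%) and 1.03% of promoters, and the cAMP response element in 1 window and 1.65%. The CCAAT box CCAAT was in 7 windows (50%) and 32% of promoters, and the TATA box TATAAA in 1 window and 10.7%. The E-box CACGTG and the oestrogen-related receptor motif TCAAGGTCA, in 6.34% and 0.319% of promoters, were in none of the members' windows. These are matches of letters only, and the start used in these cells was not measured.

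Levels are log2 signal intensities after background correction, quantile normalization and correction of slide 1, averaged over the probes of a gene. Probes differ in how brightly they bind, so levels are compared between samples and not between genes. Each of the 3 slides held 1 array of every group, replicates are numbered by slide, and each group lay at the same position on all slides, so position and group cannot be told apart. Between 50.9% and 82.4% of spots per array were well above background. Of the 16 member probes, 15 were well above background on all 24 arrays, and the second MFN2 probe was on 19. The array of 100 nM rotenone replicate 3 on day 15 stood apart, with a residual standard deviation over genes of 0.483 against 0.213 to 0.323 on the others. The scan name of day 15 DMSO replicate 1 gave 12 h on day 15 and named neither DMSO nor rotenone, whereas those of the other 5 DMSO arrays gave DMSO for 24 h. Among the groups, 12 h was the exposure of the 50 nM rotenone group only, so that this array's place in the DMSO group rests on its label. The differences of RHOT2, TRAK1 and OPA1 between the days are also given without it. Differences of the lists and levels of the markers between the days include it. All 8 listed neuron markers were well above background on every array. Of 9 dopaminergic markers 4 were (TH, SLC6A3, NR4A2 and PITX3), and TH, which makes the precursor of dopamine, had a mean level of 9.97 over day 8 arrays and 6.89 over day 15 arrays. None of 5 astrocyte markers was above background on all arrays. Of the 3 oligodendrocyte markers with a probe, MBP and MOG were, at mean levels of 5.43 and 5.28 over day 8 arrays. The sources do not say whether the 3 samples of a group came from separate cultures, so p-values measure the spread between these samples. In bulk RNA, fewer cells of a type and less RNA per cell cannot be told apart.

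**Figure D1:**
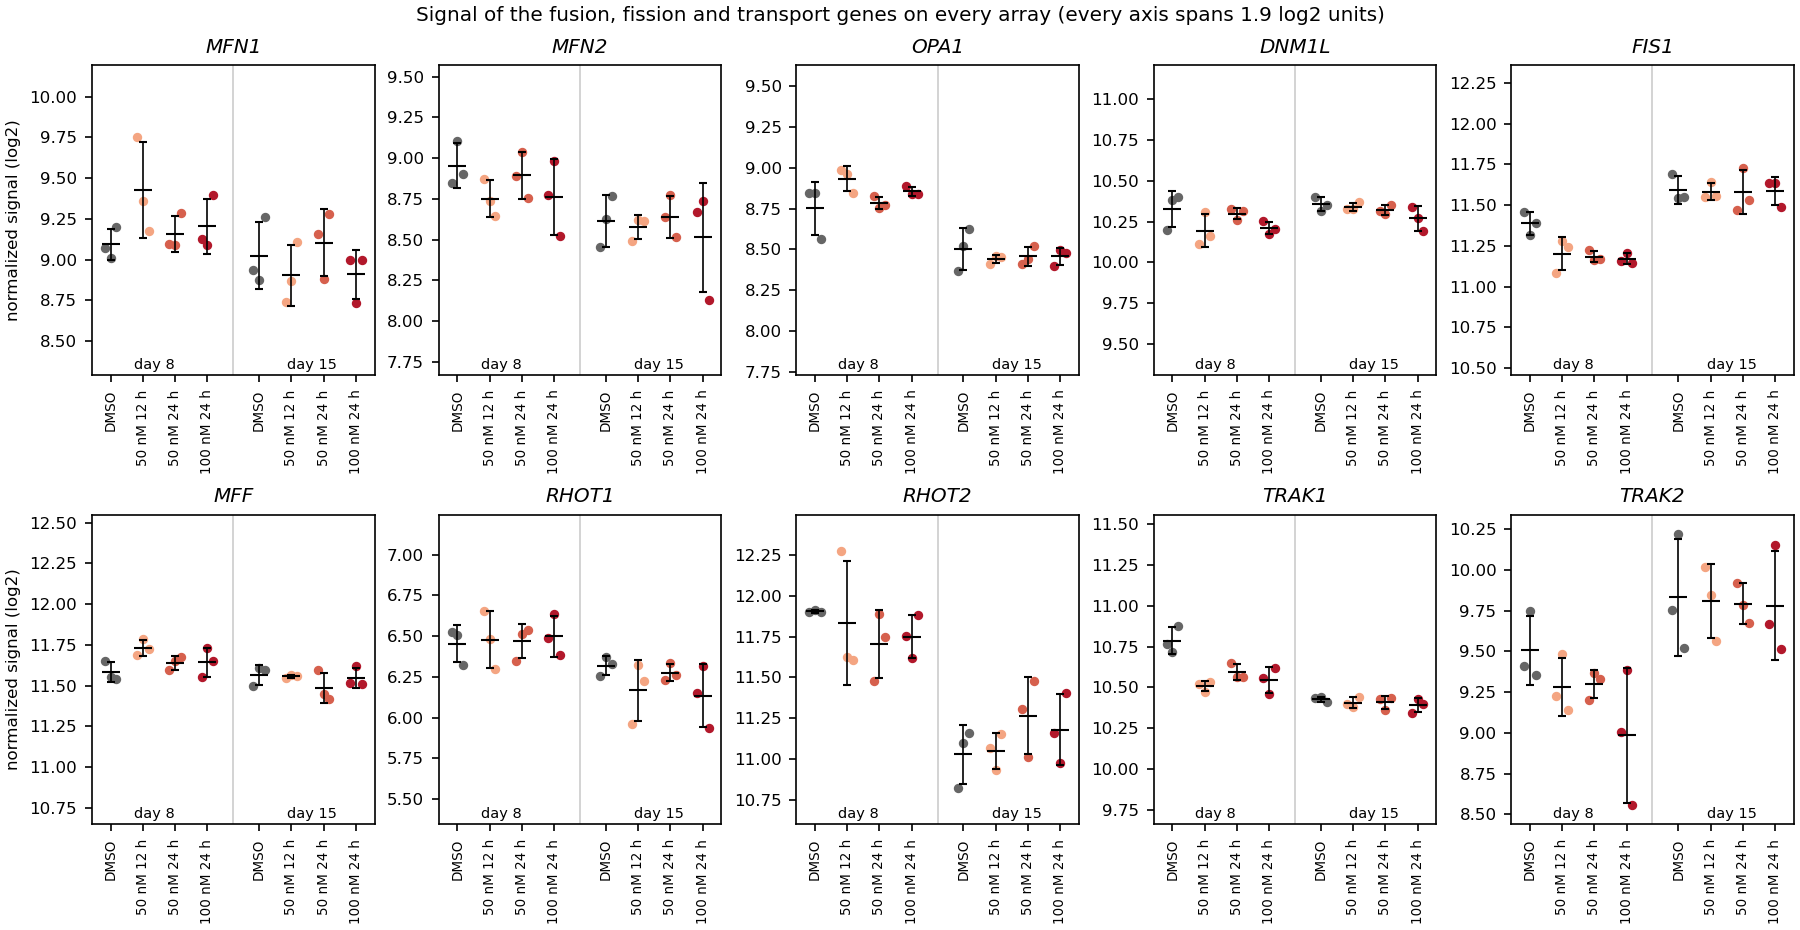
Normalized signal (log2, vertical axes, all of the same span) of the 10 genes on all 24 arrays, by group and day. Points are single arrays, and black bars are the mean and SD of the 3 arrays of a group; RHOT2 and TRAK1 lie lower and FIS1 lies higher on all day 15 arrays than on all day 8 arrays.

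The first comparison asked which of these genes differed directly after 24 h of 100 nM rotenone. TRAK1 fell by 0.24 on the log2 scale (SE 0.066, 95% interval -0.38 to -0.10), a decrease to 0.847 of the DMSO signal, and was the 1 member called (limma, Benjamini-Hochberg adjusted p = 0.028). A gene was called at an adjusted p under 0.05 over all genes tested, at any size of change. By this rule 9.44% of all genes were called, 5.32% lower and 4.11% higher, so that 1 of 10 is near the background. The other 9 genes differed by between -0.52 (TRAK2) and 0.11 (MFN1). The median absolute log2 difference was 0.14 over the members and 0.20 over all genes, and no member passed a fold change of 1.5 with an adjusted p under 0.05, as 3.6% of all genes did. The 3 arrays of the dose and the 3 of DMSO did not overlap for FIS1, RHOT2 and TRAK1, all with the lower values at 100 nM, whereas 28.7% of all genes had arrays that did not overlap. The day 8 comparisons share the 3 DMSO arrays.

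No fusion gene was called in any rotenone comparison. MFN1 on day 8 had log2 levels of 9.07, 9.01 and 9.20 on the DMSO arrays and 9.12, 9.09 and 9.40 at 100 nM. The groups overlapped, and the difference was 0.11 (SE 0.15, adjusted p = 0.78). At 50 nM for 12 h the MFN1 values were 9.75, 9.36 and 9.17, of which 1 lay inside the DMSO range, and the difference of 0.33 (SE 0.15) did not pass the test (unadjusted p = 0.042, adjusted p = 0.26 in the limma fit). MFN2, the other mitofusin and the gene of an inherited axonal neuropathy, had 8.85, 9.11 and 8.91 with DMSO and 8.78, 8.99 and 8.52 at 100 nM, with a difference of -0.19 (SE 0.15, adjusted p = 0.53). Its gene level averages a bright probe and one near background. OPA1, the inner membrane GTPase mutated in dominant optic atrophy, had 8.85, 8.84 and 8.57 with DMSO, 8.89, 8.84 and 8.84 at 100 nM and 8.99, 8.96 and 8.85 at 50 nM for 12 h. The 50 nM 12 h group lay highest, its lowest array level with the highest DMSO array, and differed by 0.18 (SE 0.084, adjusted p = 0.27), while the difference at 100 nM was 0.10 (adjusted p = 0.56).

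Among fission genes, FIS1, a tail-anchored protein of the outer membrane, was lower on every rotenone array of day 8. Its levels were 11.46, 11.31 and 11.39 on the day 8 DMSO arrays, 11.09, 11.28 and 11.24 at 50 nM for 12 h, 11.22, 11.16 and 11.17 at 50 nM for 24 h and 11.16, 11.21 and 11.15 at 100 nM. All 9 rotenone arrays lay below the 3 DMSO arrays. The mean difference over the 3 rotenone groups was -0.20 (SE 0.067, 95% interval -0.34 to -0.061) and missed the threshold (adjusted p = 0.061), and at 100 nM it was -0.22 (SE 0.082, adjusted p = 0.12). DNM1L, the constricting GTPase, ranged from 10.20 to 10.40 with DMSO and from 10.17 to 10.25 at 100 nM, a difference of -0.12 (SE 0.073, adjusted p = 0.4). It had the narrowest span of the 10 genes, with all 8 group means within 0.16 log2 units. MFF, a receptor of DRP1, ranged from 11.54 to 11.65 with DMSO and from 11.55 to 11.73 at 100 nM, and its gene level differed by 0.064 (SE 0.072, adjusted p = 0.72), an average over 2 probes that differed in opposite directions.

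The single called member was a transport gene. TRAK1, the adaptor known for axonal transport, had 10.77, 10.72 and 10.88 on the day 8 DMSO arrays. Its values were 10.52, 10.47 and 10.53 at 50 nM for 12 h, 10.65, 10.57 and 10.56 at 50 nM for 24 h and 10.56, 10.46 and 10.62 at 100 nM. As for FIS1, every one of the 9 rotenone arrays was below every DMSO array, which made 2 of 10 members without overlap between exposed and DMSO arrays, against 11.8% of all genes. TRAK1 fell by 0.28 at 50 nM for 12 h (SE 0.066, adjusted p = 0.017), where 5.48% of all genes were called and 2.83% were lower, and by 0.24 in the mean of the 3 rotenone groups (SE 0.054, adjusted p = 0.0067), where 11.4% were called and 6.18% were lower. At 50 nM for 24 h, with 7.96% of all genes called, its difference of -0.19 (SE 0.066) missed the threshold (adjusted p = 0.087), and none of the 10 genes was called. Within the 3 slides the 100 nM difference was -0.22, -0.25 and -0.26. The call at 100 nM was lost without day 8 DMSO replicate 1 or 3 or 100 nM replicate 1 or 2 (adjusted p from 0.031 to 0.14 over the arrays left out in turn), that at 50 nM for 12 h without DMSO replicate 3 or replicate 2 of the dose (0.026 to 0.099), and that in the mean without DMSO replicate 3 (0.075). Taken from its brightest probe alone, TRAK1 differed by -0.046 at 100 nM (adjusted p = 0.86), and in the values normalized by the authors by -0.089 (adjusted p = 0.47).

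TRAK2, the related adaptor found more in dendrites, had 9.41, 9.75 and 9.36 with DMSO and 9.01, 9.39 and 8.56 at 100 nM. The 2 ranges overlapped only through replicate 2 of the dose, and the difference of -0.52 (SE 0.21, 95% interval -0.96 to -0.082) was the widest of the 10 genes but did not pass the test (unadjusted p = 0.023, adjusted p = 0.14 in the limma fit). With slide as a block in place of the batch correction it was -0.54 (adjusted p = 0.027), and without 100 nM replicate 2 it was -0.72 (adjusted p = 0.049). RHOT1 ranged from 6.32 to 6.53 with DMSO and from 6.38 to 6.63 at 100 nM, a difference of 0.047 (SE 0.12, adjusted p = 0.9). RHOT2 had 11.90, 11.92 and 11.90 with DMSO, and 11.75, 11.62 and 11.88 at 100 nM. All 3 exposed arrays were lower, yet the difference of -0.16 (SE 0.17) was within the error that the fit gives this gene (adjusted p = 0.7), whose arrays at 50 nM for 12 h ran from 11.61 to 12.28.

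**Figure D2:**
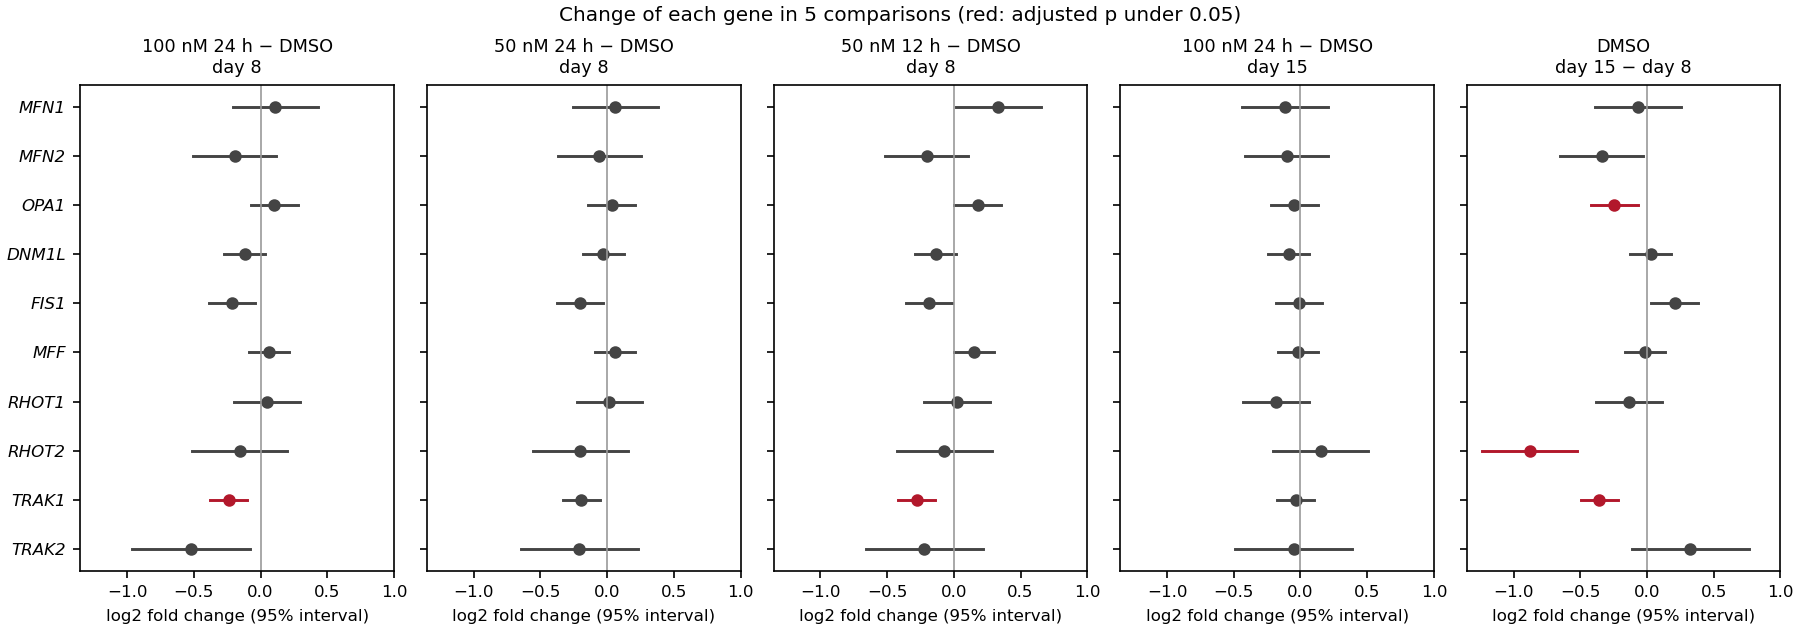
Log2 fold change (horizontal axes) of each of the 10 genes in 5 comparisons, 1 per panel, with bars for the 95% interval of the limma fit and red for an adjusted p under 0.05. TRAK1 is called at 100 nM and at 50 nM for 12 h on day 8, RHOT2, TRAK1 and OPA1 are called between the days in DMSO, and every interval of the day 15 rotenone panel includes 0.

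Dose and time were compared at matched settings on day 8. Between 24 h and 12 h of 50 nM, where 0.598% of all genes were called, the 10 genes differed by -0.27 (MFN1) to 0.14 and none was called (lowest adjusted p = 0.54). Between 100 nM and 50 nM for 24 h they differed by -0.31 (TRAK2) to 0.070, and none was called, as was none of the 21420 genes, of which 1027 had an unadjusted p under 0.05 in limma. For TRAK1 the dose difference was -0.046 (95% interval -0.19 to 0.093).

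The second question was whether differences remained after wash-out. On day 15, none of the 10 genes was called in any of the 3 rotenone groups or their mean, and neither was any of the 21420 genes (0% in each comparison). In limma, 1565 genes (7.31%) had an unadjusted p under 0.05 at 100 nM, 699 (3.26%) at 50 nM for 24 h and 794 (3.71%) at 50 nM for 12 h, and no member was among them. TRAK1 had 10.43, 10.44 and 10.41 on the day 15 DMSO arrays and 10.35, 10.43 and 10.40 after 100 nM. The groups overlapped, with a difference of -0.037 (SE 0.066, 95% interval -0.18 to 0.10). FIS1 had 11.69, 11.54 and 11.55 with DMSO and 11.64, 11.63 and 11.49 after 100 nM, a difference of -0.008 (95% interval -0.18 to 0.17). TRAK2 differed by -0.050 (95% interval -0.49 to 0.39), so that a change of the size measured on day 8 lies just outside its interval. Over all 10 genes the day 15 differences after 100 nM ran from -0.18 (RHOT1) to 0.15 (RHOT2), and the intervals of the 3 groups lay between -0.49 and 0.59. The median absolute difference was 0.069 over the members and 0.14 over all genes. Without the array of 100 nM replicate 3, which stood apart, there were 0 calls as well.

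Whether the rotenone difference itself changed between the days was tested as an interaction. At 100 nM, where 2.45% of all genes were called, TRAK1 had an interaction of 0.20 (SE 0.094, adjusted p = 0.32), and at 50 nM for 12 h, with 0.999% called, of 0.26 (SE 0.094, adjusted p = 0.25). None of the 10 genes was called in these or at 50 nM for 24 h, with 2.03% called. The call of TRAK1 on day 8 and its absence on day 15 are therefore not shown to differ.

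Larger differences lay between the 2 days in DMSO aggregates, which had not met rotenone. RHOT2 had 11.90, 11.92 and 11.90 on day 8 and 10.82, 11.10 and 11.16 on day 15. It fell by 0.88 on the log2 scale (SE 0.17, 95% interval -1.23 to -0.52), to 0.544 of its day 8 signal (adjusted p = 0.00079), the largest difference of the 10 genes and the 1 that passed a fold change of 1.5, as 12.4% of all genes did. TRAK1 fell from 10.79 ± 0.082 to 10.43 ± 0.015 (SD, n = 3), by 0.36 (SE 0.066, adjusted p = 0.00053), to 0.78 of its day 8 signal. OPA1 fell from 8.75 ± 0.16 to 8.505 ± 0.13, by 0.25 (SE 0.084, adjusted p = 0.039), to 0.843. Without day 15 DMSO replicate 1, the array with the doubtful scan name and the lowest RHOT2 level, RHOT2 differed by -0.78 (adjusted p = 0.007) and TRAK1 by -0.36 (adjusted p = 0.0025), and OPA1, at -0.18 (adjusted p = 0.19), was not called. Called on all arrays were 3 of 10 members, all lower, against 23.1% of all genes called, 13.2% lower and 9.9% higher.

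RHOT2 was called in all 12 alternative processings, between -0.96 and -0.77, and differed by -1.08, -0.81 and -0.73 within slides 1, 2 and 3. TRAK1 was called in 10 of the 12, with differences from -0.408 to -0.051 (limma, adjusted p from 0.00011 to 0.77). OPA1 was called in 4 of the 12, and its difference was -0.43 and -0.33 on slides 1 and 2 but 0.09 on slide 3, where DMSO had 8.57 on day 8 and 8.62 on day 15. The OPA1 call was lost with slide as a block (adjusted p = 0.068) and without DMSO replicate 1 or 2 of either day (0.0074 to 0.19 over arrays left out in turn). Scaling each array to its 75th percentile in place of quantile normalization moved the median of all genes between the days from -0.034 to 0.14, and RHOT2 was then at -0.96 and TRAK1 at -0.41.

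The remaining genes were not called between the days. MFN2 differed by -0.34 (SE 0.15, adjusted p = 0.11), TRAK2 by 0.33 (SE 0.21, adjusted p = 0.31) and FIS1 by 0.21 (SE 0.082, adjusted p = 0.082). MFN1, DNM1L, MFF and RHOT1 lay between -0.13 (RHOT1) and 0.028 (DNM1L), with adjusted p from 0.48 to 0.93. FIS1, TRAK2 and DNM1L had the higher means on day 15 and the other 7 genes the lower ones.

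Taking all 12 arrays of each day together, whatever the exposure, 3 of the 10 genes had days that did not overlap, against 12.7% of 21379 genes, and in 7.33% day 15 was the lower. RHOT2 ran from 11.476 to 12.28 on day 8 (median 11.82) and from 10.82 to 11.475 on day 15 (median 11.13), so that the ranges nearly touched. TRAK1 ran from 10.46 to 10.88 (median 10.565) on day 8 and from 10.35 to 10.44 (median 10.42) on day 15. FIS1 ran from 11.09 to 11.46 (median 11.22) and from 11.47 to 11.73 (median 11.55), higher on day 15. The days of OPA1 overlapped, with 8.57 to 8.99 (median 8.84) and 8.37 to 8.62 (median 8.46). The day 15 DMSO level of TRAK1 (10.41 to 10.44) also lay below every rotenone array of day 8 (10.46 to 10.65). Dopaminergic markers moved with the days, with a summed level of 10.6 to 10.62 on the day 8 DMSO arrays and 9.59 to 9.68 on day 15. TH and SLC6A3 had the lower means over day 15 arrays (SLC6A3 8.44 and 5.98), whereas NR4A2 (5.91 and 7.70), FOXA2 (4.65 and 5.48) and PITX3 (7.64 and 7.96) had the higher ones. The summed neuron markers were at 17.38 to 17.58 on the day 8 DMSO arrays and 17.48 to 17.65 on day 15. Their part in these differences was not tested.

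The 8 group means of each gene were also put in order, and each mean was set against the next one down, as a description with no test. Of the 70 neighbouring pairs over the 10 genes, 12 were farther apart than their pooled SD. For RHOT2 the single such step lay between the lowest day 8 mean (11.71, 50 nM for 24 h) and the highest day 15 mean (11.26, 50 nM for 24 h), so neighbours within a day were not separated. TRAK1 had 1 step below the day 8 DMSO mean (10.79 against 10.59 at 50 nM for 24 h) and 1 between the lowest day 8 mean (10.51) and day 15 DMSO (10.43). FIS1 had its 2 steps on either side of day 8 DMSO (11.39), with the 4 day 15 means from 11.58 to 11.59 above it and the 3 day 8 rotenone means from 11.17 to 11.20 below it. TRAK2 had the same order of blocks, from 9.78 to 9.83 on day 15, 9.51 in day 8 DMSO and from 8.98 to 9.30 in the day 8 rotenone groups, and only the step from day 8 DMSO to 50 nM for 24 h was beyond the spread. OPA1 had 3 such steps, RHOT1 1 and MFF 2, and MFN1, MFN2 and DNM1L had none.

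Probes of the same gene did not always move together. For MFF, both probes carry the accession NM_020194. The brighter one (A_23_P405148) had 12.73, 12.59 and 12.65 with DMSO on day 8, 13.04, 13.11 and 13.07 at 50 nM for 12 h, 12.87, 12.96 and 12.99 at 50 nM for 24 h and 12.91, 13.07 and 13.06 at 100 nM. All 9 rotenone arrays were above all DMSO arrays. This probe rose by 0.36 at 100 nM (SE 0.087, adjusted p = 0.021), where 4.41% of 49179 probes were called, and by 0.41 at 50 nM for 12 h (adjusted p = 0.013), where 2.4% were. At 50 nM for 24 h, with 3.42% called, it differed by 0.28 (adjusted p = 0.09). The call of this MFF probe was lost at 100 nM without DMSO replicate 2 or 3 or without replicate 2 or 3 of the dose (adjusted p from 0.029 to 0.1 over the arrays left out in turn), and at 50 nM for 12 h without DMSO replicate 2 or 3 or replicate 2 of the dose (0.029 to 0.073). In the mean of the 3 groups it was 0.35 higher (adjusted p = 0.0046) and stayed called whichever of the 12 arrays was left out. The dimmer MFF probe (A_23_P92994) had 10.57, 10.52 and 10.43 with DMSO and 10.20, 10.40 and 10.24 at 100 nM, a difference of -0.23 that did not pass the test (adjusted p = 0.28).

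TRAK1 showed the reverse pattern, with the dimmer probe moving. That probe (A_33_P3406899, accession NM_001265608) had 8.66, 8.68 and 8.90 with DMSO, 8.19, 8.13 and 8.38 at 50 nM for 12 h, 8.54, 8.36 and 8.39 at 50 nM for 24 h and 8.34, 8.09 and 8.5 at 100 nM. It fell by 0.51 at 50 nM for 12 h (adjusted p = 0.042) and by 0.42 in the mean of the 3 groups (adjusted p = 0.022), where 5.49% of probes were called. The first of these calls was lost whichever of the 6 arrays was left out (adjusted p from 0.05 to 0.2), and the second whichever of the 3 DMSO arrays was left out (0.055 to 0.18). At 100 nM its difference was -0.43 (adjusted p = 0.071). The brighter TRAK1 probe (A_23_P132536, accession NM_001042646) had 12.88, 12.75 and 12.86 with DMSO and 12.77, 12.83 and 12.74 at 100 nM, with overlapping arrays and a difference of -0.046. Between the days in DMSO, where 12.3% of probes were called, the dimmer probe fell by 0.67 (adjusted p = 0.0016), and the brighter one differed by -0.051. The TRAK1 difference was carried by 1 of its 2 probes.

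**Figure D3:**
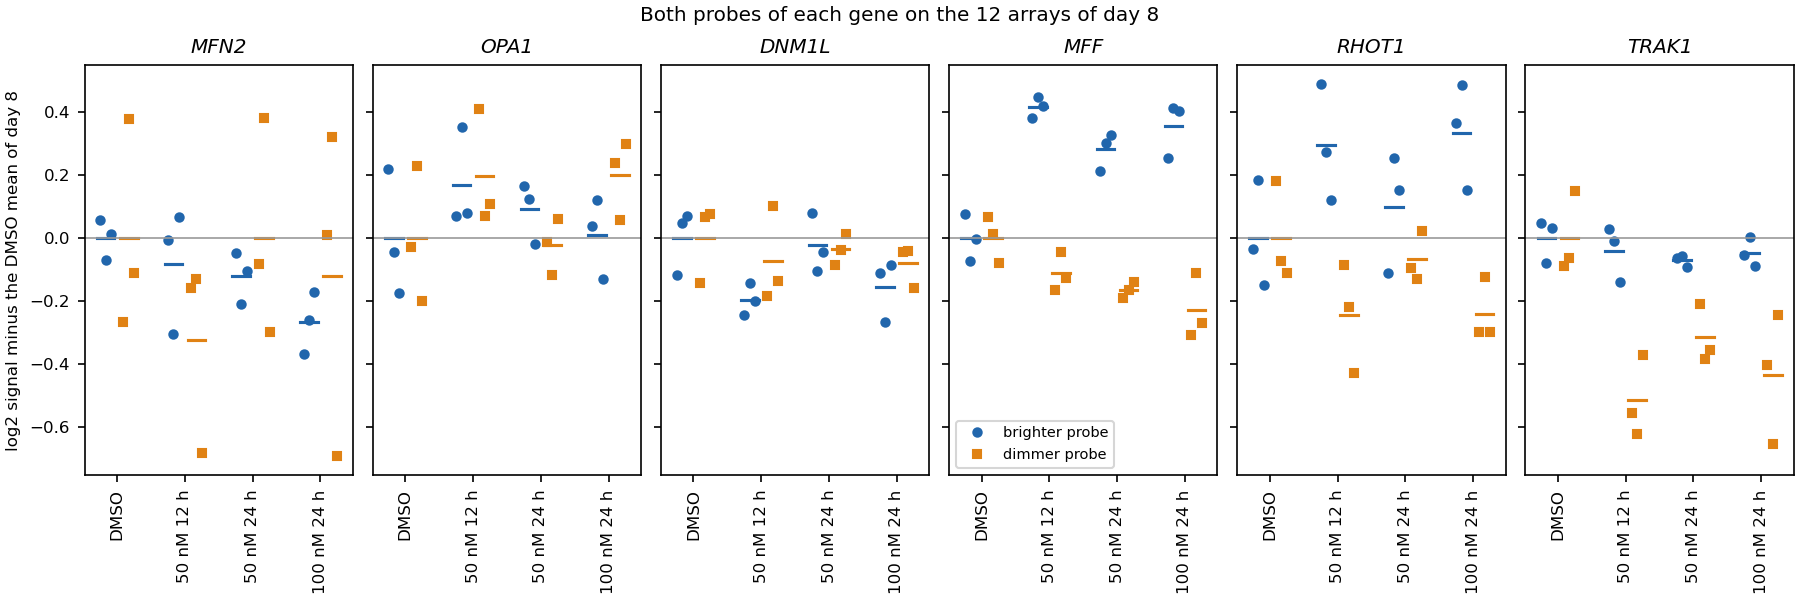
Log2 signal minus the mean of the day 8 DMSO arrays (vertical axis) for both probes of the 6 genes with 2 probes, on the 12 arrays of day 8. Circles and squares are arrays for the brighter and the dimmer probe, and short lines are group means; the brighter MFF probe lies higher and the dimmer TRAK1 probe lower on all 9 rotenone arrays than on the 3 DMSO arrays.

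The gap between the 2 probes of a gene within an array, brighter minus dimmer, was compared between the 9 rotenone and 3 DMSO arrays of day 8 with a two-sided exact permutation test, a comparison chosen after the values were seen. It widened by 0.52 for MFF, from 2.07 to 2.23 with DMSO to 2.55 to 2.82 with rotenone (exact permutation p = 0.0045, the smallest that 220 splits can give, and 0.054 after adjustment over 12 tests). For TRAK1 it was larger by 0.37 (3.97 to 4.22 against 4.23 to 4.74, exact permutation p = 0.0091, adjusted 0.055), and for RHOT1 by 0.43 with overlapping arrays (exact permutation p = 0.018, adjusted 0.072). None of the 12 passed after adjustment. A single gene at the smallest possible p could not pass, as 0.0045 became 0.054 for MFF, so nothing is concluded from this. For DNM1L, MFN2 and OPA1 the gap differed by -0.061 to -0.008 (exact permutation p from 0.48 to 0.97), and on day 15 the 6 exact permutation p ran from 0.5 to 0.93. Where on the transcripts these probes bind was not used here.

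Paralogous pairs were compared within arrays in the same way. With rotenone on day 8 the MFN1 minus MFN2 difference was 0.32 larger (exact permutation p = 0.12, adjusted 0.38), the RHOT1 minus RHOT2 difference 0.17 larger (exact permutation p = 0.19, adjusted 0.38) and the TRAK1 minus TRAK2 difference 0.080 larger (exact permutation p = 0.72). On day 15 the 3 pairs differed by -0.26 (RHOT1 minus RHOT2, exact permutation p = 0.16) to 0.012. None of the 6 tests passed the threshold.

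Genes that work with the members were read from 5 lists, all of whose genes were tested. Their counts are read against the 9.44% of all genes called at 100 nM on day 8. With the filter on spots well above background, 2576 of 15595 genes were called there, a larger share. The lists were not read against that share. Of 15 other fusion and inner membrane processing genes, 2 rose and none fell in that comparison (13.3% called). These were OMA1, the stress-activated protease that cleaves OPA1 (0.43, SE 0.11, adjusted p = 0.015), and PLD6, a mitochondrial phospholipase that aids fusion (0.39, SE 0.084, adjusted p = 0.0053). The list's median log2 difference was -0.098 against -0.023 over all genes. Of 20 other fission genes, 2 rose and 3 fell (25%), led by GDAP1, an outer membrane protein mutated in a neuropathy (-0.81, SE 0.18, adjusted p = 0.0077), the actin-assembling formin INF2 (0.65, SE 0.13, adjusted p = 0.0037) and the dynamin DNM3 (-0.45, SE 0.13, adjusted p = 0.032). The list's median was -0.12.

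Transport partners had 2 of 21 genes higher and 1 lower (14.3%), with a median of -0.12. The axonal docking protein SNPH, which holds mitochondria still, rose by 0.36 (adjusted p = 0.01), SYBU, the kinesin linker syntabulin, fell by 0.34 (adjusted p = 0.046), and ARMC10 rose by 0.26 (adjusted p = 0.034). The SYBU call was lost whichever of the 6 arrays was left out (limma, adjusted p from 0.057 to 0.21), and that of ARMC10 in 5 of 6 runs. Of 11 cristae genes, the MICOS subunits MICOS13 (0.75, adjusted p = 3.5e-05) and CHCHD6 (0.36, adjusted p = 0.029) rose (18.2%), and the median was 0.044. Of 12 mitophagy genes acting on the members, 1 rose and 2 fell (25%). VCP, the ATPase that extracts ubiquitylated mitofusins, fell by 0.70 (adjusted p = 3.2e-05), BNIP3L, a mitophagy receptor, fell by 0.27 (adjusted p = 0.023), and OPTN, an autophagy adaptor, rose by 0.41 (adjusted p = 0.027), with a list median of 0.071. On day 15 after 100 nM, none of the genes of the 5 lists was called in limma.

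Between the days in DMSO, where 23.1% of all genes were called, the transport list had 8 of 21 genes higher and 2 lower (47.6% called), with a median of 0.18 against -0.034 over all genes. With the filter on spots well above background, 5592 of 15595 genes were called between the days, a larger share than 23.1%. FEZ1, a kinesin-1 adaptor, rose by 1.12 (adjusted p = 8.1e-09), ARMCX1, an outer membrane protein that promotes axonal transport of mitochondria, by 0.94 (adjusted p = 1.8e-07), and SNPH by 0.77 (adjusted p = 1.5e-06). The fusion list had 2 genes higher and 4 lower (40% called, median -0.047), with SPG7 (-0.62, adjusted p = 0.019), OPA3 (-0.62, adjusted p = 0.00017) and the OPA1-cleaving protease YME1L1 (-0.49, adjusted p = 0.00048) lower. The fission list had 4 higher and 1 lower (25%, median 0.020), near the share over all genes. DNM3 rose by 1.29 (adjusted p = 4.5e-07) and AKAP1, the outer membrane anchor of protein kinase A, by 0.44 (adjusted p = 0.011). In the main processing MTFR2 was at least 2.4-fold lower (adjusted p = 2.2e-05), a bound because its probe was not well above background on any of the 3 day 15 DMSO arrays. That bound depends on the processing, as the MTFR2 difference ran from -2.289 to -0.463 over the 12 alternatives and was called in 11. CHCHD6 rose by 0.61 (adjusted p = 0.00015) and MICOS13 by 0.47 (adjusted p = 0.00089), the 2 calls among the 11 cristae genes (18.2%, median -0.033). The mitophagy list had 3 higher and 3 lower (50%, median 0.086), with CALCOCO2 lower (-0.64, adjusted p = 0.027) and OPTN (0.40, adjusted p = 0.017) and BNIP3L (0.34, adjusted p = 0.0019) higher.

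**Figure D4:**
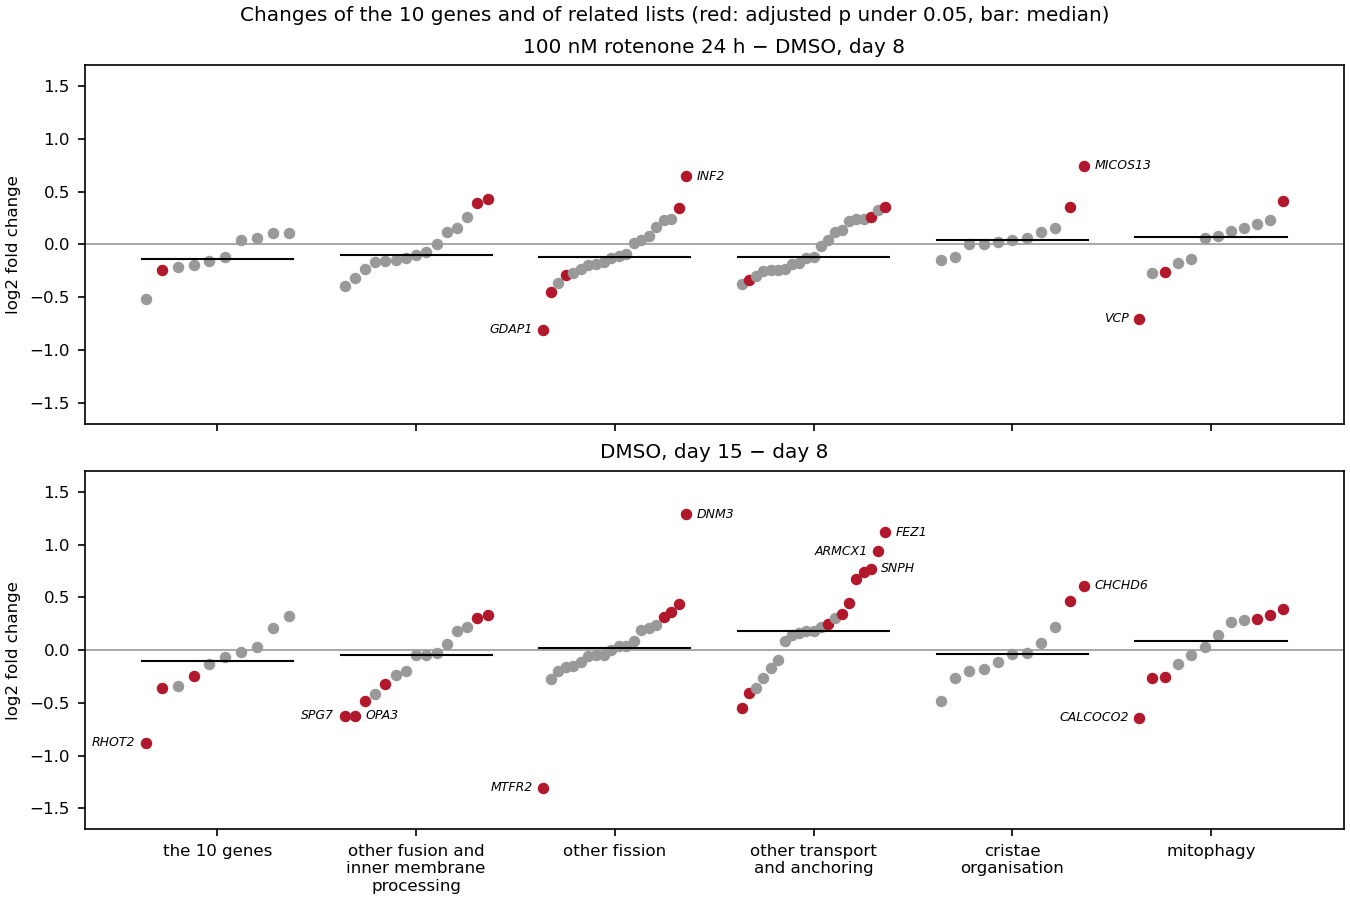
Log2 fold change (vertical axes) of the 10 genes and the genes of the 5 lists at 100 nM on day 8 (upper panel) and between the days in DMSO (lower panel). Each point is a gene, ordered by value within its list, red marks an adjusted p under 0.05 and the black bar is the median of the list; the point of MTFR2 is its measured difference, for which the text gives a bound.

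Neuron markers were part of the day 8 background. At 100 nM the microtubule protein MAP2 fell by 0.57 (adjusted p = 0.003), the RNA-binding protein ELAVL4 by 0.51 (adjusted p = 0.0076) and the synaptic protein SNAP25 by 0.30 (adjusted p = 0.041). The other listed neuron markers were not called (limma, adjusted p from 0.099 to 0.93). DCX (-0.45), TUBB3 (-0.25) and SYP (-0.13) had lower means, and RBFOX3 (0.055) and STMN2 (0.04) higher ones. The summed level of the 8 neuron markers was 17.38 to 17.58 with DMSO and 17.27 to 17.36 at 100 nM. Summed markers of dividing or progenitor cells were at 10.67 to 10.95 and 11.17 to 11.33, with SOX2 above background on no array. This sum was mostly NES, a progenitor filament protein (0.59, adjusted p = 0.062), and the division markers TOP2A (-0.74), MKI67 (-0.38) and CCNB1 (-0.26) had lower means at 100 nM and CDK1 differed by 0.028, none of them called (adjusted p from 0.36 to 0.98). Their part in the TRAK1 difference was not tested.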

How the data were processed

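RNA of 24 aggregate samples (8 groups of 3) had been hybridised to one-colour Agilent arrays of 62976 spots whose design names genome build hg19. Per the labels and file headers, scans were extracted with Agilent Feature Extraction 11.5.1.1, and those of slide 2 with 12.0.0.7. The deposited array files hold linear fluorescence intensities per spot. A second deposited table holds log2 values that the authors normalized with R 3.5, for 21733 probe IDs of which 19615 matched a gene, and served as an alternative. Per the study's methods, 1 subset of arrays was processed at another time with another washing procedure. The methods text does not name these arrays, and slide 1 was treated as the subset here. Groups were taken from the labels.

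Median spot intensities were background-corrected (normexp, offset 0) and quantile-normalized with limma 3.58.1 in R 4.3.3. Slide 1 as 1 batch and slides 2 and 3 as the other were then both adjusted to a common level and spread. This used parametric ComBat written for this work, with groups as covariates. Of all spots, 60567 were kept because their signal on 3 or more arrays passed 1.1 times the 95th percentile of 308 negative control spots, and flagged values were set missing. Spots were averaged to 49179 probes, and 30275 probes that matched a RefSeq (GRCh38.p14) accession were averaged to 21420 genes. A single limma fit over the 24 arrays (16 residual degrees of freedom) gave all comparisons, with Benjamini-Hochberg adjustment over all genes or, for probes, all probes. Differences within arrays were tested by exact permutation. The fits were tested on simulated data. The number of arrays limits the precision.

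Residuals before batch correction were compared between arrays of different groups. With the same replicate number, which is the slide number, they correlated in all 84 pairs (lowest r = 0.177, median 0.4). The median was -0.362 over 168 pairs of different numbers, where centring within groups of 3 makes negative values likely. Arrays of a slide thus shared an effect, and any pairing of the samples beyond the slide is not shown by this. The main fit did not use slide as a block. The members and lists were chosen with earlier results of these data known. Named were all 10 members and, of each list, up to 3 called genes with the largest change at 100 nM on day 8 and between the days in DMSO. The alternatives changed the signal, offset, scaling, batch correction, filter, flags, probe choice and samples. Figures were drawn with matplotlib 3.10.9 in Python 3.11.15.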

Additional observations from a re-analysis of the deposited data

Results flagged for a closer look

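Of the genes named from the lists, 3 had a rotenone difference that itself differed between day 8 and day 15 by the interaction test in limma, with adjustment over all genes. Over all genes 2.45% were called in this test at 100 nM, 2.03% at 50 nM for 24 h and 0.999% at 50 nM for 12 h. At 100 nM the lists had calls for 1 of 11 cristae and 1 of 12 mitophagy genes, and none for fusion, fission or transport. The genes had been named for large changes in values that also enter the interaction, so this is a description. MICOS13, a subunit of the cristae-organising MICOS complex, differed from DMSO by 0.75 on day 8 and 0.070 on day 15 at 100 nM, an interaction of -0.68 (SE 0.13, adjusted p = 0.0072), and by 0.67 and -0.019 at 50 nM for 24 h, an interaction of -0.69 (adjusted p = 0.0082). VCP, an ATPase of protein extraction and degradation, differed by -0.70 and -0.006 at 100 nM, an interaction of 0.7 (SE 0.12, adjusted p = 0.0034), by -0.70 and 0.11 at 50 nM for 24 h, an interaction of 0.81 (adjusted p = 0.0017), and by -0.59 and -0.017 at 50 nM for 12 h, an interaction of 0.57 (adjusted p = 0.031). SYBU, the kinesin linker, differed by -0.62 and 0.008 at 50 nM for 24 h, an interaction of 0.62 (adjusted p = 0.031).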

How the results depend on the processing

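At 100 nM on day 8, the 1 member called became 0 with scaling to the 75th percentile, without batch correction, with slides 2 and 3 only and with only the compared groups in the fit, and became 2 (TRAK1 and TRAK2) with slide as a replicate block. With the brightest probe and with the values normalized by the authors the count stayed 1, but the member called was MFF (0.356, adjusted p = 0.0029) and TRAK2 (-0.488, adjusted p = 0.017) in place of TRAK1, which was thus called in 6 of the 12. At 50 nM for 24 h the count of 0 became 1 with a normexp offset of 50, with the filter on spots well above background (TRAK1 in both) and with the brightest probe of each gene (MFF). At 50 nM for 12 h the count of 1 became 0 without batch correction, with slides 2 and 3 only, with the values normalized by the authors and with only the compared groups, and with the brightest probe the 1 call was MFF in place of TRAK1. In the mean of the 3 rotenone groups the count of 1 became 2 with the offset of 50 and with the filter on spots well above background, and 0 without batch correction and with slides 2 and 3 only, and the 1 call was MFF with the brightest probe and FIS1 with the values normalized by the authors. Between the days in DMSO, 3 became 5 with the offset of 50 and 1 with slides 2 and 3 only, and OPA1 differed by 0.088 within slide 3, the 1 turned direction among the called results recomputed. Results that were not called turned too: within single slides, 4 of 30 member values at 100 nM on day 8 and 7 of 30 between the days (OPA1 included) had the opposite sign, as MFF did on slide 1 at 100 nM (-0.102), at 50 nM for 24 h (-0.063) and in the mean (-0.044), and TRAK1 minus TRAK2 on day 8 ran from -0.076 to 0.2 over the arrays left out. With the brightest probe of each gene, 1 member (MFF) was called in the interaction at 100 nM and at 50 nM for 12 h. The within-array difference of MFN1 minus MFN2 on day 8 was 0.325 with the brightest probe (exact permutation p = 0.041), and that of RHOT1 minus RHOT2 was 0.257 with the processed signal (exact permutation p = 0.027) and 0.385 with the brightest probe (exact permutation p = 0.018). These p are unadjusted, whereas the main paralog results were judged after adjustment over 6 tests, so they do not show a pass. With slide as a replicate block, 2 member probes rather than 1 were called at 100 nM on day 8. For each of these changes the cause was not tested, except that the slide and group subsets hold fewer arrays.

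Over the arrays left out in turn, the members called ranged from 0 to 1 at 100 nM (TRAK2 in place of TRAK1 without 100 nM replicate 2), at 50 nM for 12 h and in the mean on day 8, and from 2 to 3 between the days, and member probes called ranged from 0 to 1 at 100 nM, from 0 to 1 at 50 nM for 12 h and from 1 to 2 in the mean. All day 15 counts of members were 0 in every alternative run. The lists' counts at 100 nM on day 8 ranged over the alternatives from 0 to 4 (fusion), 0 to 6 (fission), 0 to 5 (transport), 1 to 2 (cristae) and 1 to 4 (mitophagy). Among the genes named from the lists, MICOS13 and VCP at 100 nM and FEZ1, ARMCX1, SNPH, DNM3 and YME1L1 between the days were called in all 12 alternatives, whereas BNIP3L at 100 nM was called in 5. With each of the 6 arrays left out in turn at 100 nM, the call of SYBU was lost in 6 runs. Those of ARMC10, DNM3, CHCHD6 and BNIP3L were lost in 5, of OPTN in 4, of OMA1 in 3, of SNPH in 2 and of GDAP1 in 1. The calls of PLD6, INF2, MICOS13 and VCP were kept. Between the days, those of SPG7 and CALCOCO2 were lost in 4 of 6 runs and those of AKAP1 and OPTN in 2.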
